A study of Homo sapiens with 2 samples.

Results

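The miR-29 family is a set of microRNAs (miRNAs, short RNAs that lead to repression of matching messenger RNAs) made from 4 hairpins at 2 genomic loci. Members were taken as every entry of the deposited table whose precursor is mir-29a, mir-29b-1, mir-29b-2 or mir-29c, both arms included. This gave 8 of the 1546 rows and 7 of the 1497 mature names. Chromosome 7 encodes hsa-miR-29a-3p, hsa-miR-29a-5p and hsa-miR-29b-1-5p, chromosome 1 encodes hsa-miR-29c-3p, hsa-miR-29c-5p and hsa-miR-29b-2-5p, and both loci encode hsa-miR-29b-3p. The species prefix is left out below. The data come from small RNA sequencing of A375 cells, an established human melanoma line. The 2 libraries, which the submitters call independent replicates, form 1 group, from cells kept for 48 h in DMSO, a solvent commonly given as vehicle control. No other condition was analysed here, so the comparisons below are between loci, arms and libraries within DMSO-treated cells.

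MiRNA hairpins are cut into a pair of short strands named for the 5′ and 3′ arms of the hairpin (5p and 3p), one of which, the guide, is usually kept in the silencing complex while the other, the passenger, is mostly lost. Target choice rests mainly on the seed, the bases at the 5′ end of the guide that pair with messenger RNA. MiR-29 guides are 3p strands and are known as repressors of collagens and other matrix genes, of the DNA methyltransferases DNMT3A and DNMT3B, of TET enzymes and of the survival gene MCL1. MYC is known to repress transcription of miR-29 loci in lymphoid cells. A mature name is the annotated strand, and values are reads per 1000000 read assignments (RPM) in replicate 1 and replicate 2.

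The 3p strands are shown because they share the seed and are told apart by few bases, and the 5p strands because they alone separate the mir-29b hairpins. Sequences are from RefSeq (GRCh38.p14), where all 8 rows had a match, written 5′ to 3′ with bases 2 to 8 in capitals.
miR-29a-3p: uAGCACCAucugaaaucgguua
miR-29b-3p: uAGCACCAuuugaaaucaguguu
miR-29c-3p: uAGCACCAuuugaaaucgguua
miR-29a-5p: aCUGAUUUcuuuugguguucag
miR-29b-1-5p: gCUGGUUUcauauggugguuuaga
miR-29b-2-5p: cUGGUUUCacaugguggcuuag
miR-29c-5p: uGACCGAUuucuccugguguuc
The 3 guides carry the seed AGCACCA, and no other of the 1317 listed names with a sequence shares it. Counted from the 5′ end, miR-29a-3p and miR-29c-3p differ by C10U alone. MiR-29c-3p and miR-29b-3p differ by G18A, U21G and A22U, and miR-29b-3p is 1 base longer. The 4 passenger strands each have a seed of their own, shared with no other listed name.

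The hairpins are shown because the 2 copies of miR-29b-3p differ only in the bases around it. Capitals mark the 5p and then the 3p strand.
mir-29a: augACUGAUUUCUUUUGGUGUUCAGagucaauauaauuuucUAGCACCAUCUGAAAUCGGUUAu
mir-29b-1: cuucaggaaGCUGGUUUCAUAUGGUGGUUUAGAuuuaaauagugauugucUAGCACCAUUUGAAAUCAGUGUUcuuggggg
mir-29b-2: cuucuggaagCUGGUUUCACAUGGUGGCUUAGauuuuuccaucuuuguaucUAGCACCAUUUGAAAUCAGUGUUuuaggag
mir-29c: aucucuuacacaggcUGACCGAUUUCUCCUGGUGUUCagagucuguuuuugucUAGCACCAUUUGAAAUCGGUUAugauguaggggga
The bases after miR-29b-3p are cuuggg in mir-29b-1 and uuagga in mir-29b-2, so reads trimmed to the mature strand carry no mark of their locus.

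On chromosome 7 the hairpins MIR29A (chr7:130876747-130876810) and MIR29B1 (chr7:130877459-130877539) lie on the minus strand with 648 bases between them. In GENCODE 29, also GRCh38, MIR29B1 lies inside an exon of a transcript of the long noncoding gene LINC-PINT (ENSG00000226380), and MIR29A overlaps 2 bases of that exon. Both also lie in introns of the noncoding gene AC016831.6 on the same strand and of LINC00513 on the opposite strand. On chromosome 1, MIR29B2 (chr1:207802443-207802523) and MIR29C (chr1:207801852-207801939) lie 503 bases apart on the minus strand, both inside exonic sequence of their host gene MIR29B2CHG. The build behind the deposited values is not given in the sources used here.

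The libraries held 10816826 and 15428446 read assignments, recovered from the RPM, where 1 read was worth 0.0924 and 0.0648 RPM. Of 7 miRNAs listed for melanocytes and melanoma, 6 reached 10 RPM in each library, where 22.4% of all names did. The exception was miR-211-5p with 3 and 2 reads. Of 4 listed for fibroblasts and smooth muscle, where miR-29 is also abundant, miR-143-3p (104 and 94.9 RPM) alone passed 10 RPM, and the list summed to 107 and 98.5 RPM. The blood list summed to 0.462 and 0.324 RPM, with 2 of 4 names listed. The epithelial list summed to 22.4 and 33.4 RPM, and in it miR-141-3p (15.6 and 23.2 RPM) alone passed 10 RPM. Liver miR-122-5p and muscle miR-133a-3p stayed under 10 RPM. The muscle miRNAs miR-1-3p and miR-206 and the neuronal miR-124-3p had no entry, so no level is known for them. The part of other cells in the miR-29 values was not tested.

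MiR-29a-3p was the main member in both libraries. It had 1520 RPM in replicate 1 and 1852 RPM in replicate 2, from 16445 and 28577 reads, a mean of 1686 ± 235 RPM (SD, n = 2) that placed it at rank 56 of 1497. It made up 89.4% of the family's reads in replicate 1 (95% exact binomial interval 89.0 to 89.9) and 92.0% in replicate 2 (91.7 to 92.3). The miRNAs nearest to it in mean level were miR-17-5p, of the miR-17-92 cluster, at 1705 ± 195 RPM and miR-181a-3p at 1418 ± 335 RPM, and the library values of all 3 overlapped.

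MiR-29b-3p, the guide that both loci can make, had 110 and 100.3 RPM, a mean of 105 ± 7.15 RPM and rank 168. Its neighbours in level were miR-130b-5p (106 ± 22.0 RPM) and miR-196b-5p (102 ± 9.56 RPM). The table lists it once under each hairpin, with 1185 reads under mir-29b-1 and 1194 under mir-29b-2 in replicate 1, and 1530 and 1547 reads in replicate 2. The mir-29b-2 row was thus higher by 9 and 17 reads, or 0.759% and 1.11%. Whether the same reads were counted under both hairpins is not given in the sources used here. The higher row was used. If reads were instead divided between the rows, their sums of 220 and 199 RPM would apply. The share of miR-29b-3p made by each locus was not resolved.

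MiR-29c-3p, the guide particular to the chromosome 1 locus, had 28.2 and 28.3 RPM from 305 and 436 reads, a mean of 28.2 ± 0.0443 RPM and rank 261. The small SD is below counting error, since the exact Poisson intervals were 25.1 to 31.5 RPM and 25.7 to 31.0 RPM. MiR-200b-3p (28.8 ± 3.66 RPM) and miR-98-3p (28.2 ± 3.39 RPM) stood next to it in level. Its 1-base difference from miR-29a-3p makes its assignment depend on how mismatched reads were treated, which is not given in the sources used here. MiR-29c-3p stood at 1.85% and 1.53% of the RPM of miR-29a-3p. Pairs of equal length that differ at 1 base were sought among the 1317 of 1497 listed names with a sequence. Pairs with a name that had no sequence were thus missed. In 11 pairs the higher member had 1000 RPM or more. Among these 11, the lower member was at a smaller percentage of the higher in 3, down to 0.0549% for miR-99a-5p against miR-100-5p. Miscalled miR-29a-3p reads among those of miR-29c-3p were not tested.

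**Figure D1:**
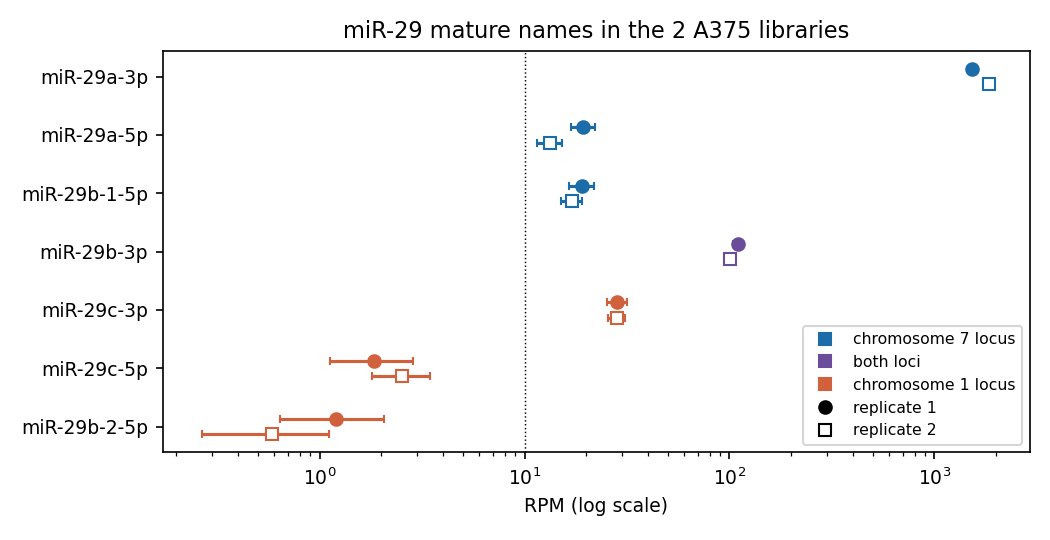
RPM of each miR-29 mature name (log axis), with filled circles for replicate 1 and open squares for replicate 2, coloured by the locus that encodes the name; bars are 95% exact Poisson intervals of the reads and the dotted line is 10 RPM. MiR-29a-3p stands at 1520 and 1852 RPM, miR-29b-3p at 110 and 100.3 RPM, and every chromosome 1 name at or below 28.3 RPM.

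Passenger strands were low. MiR-29b-1-5p had 19.0 and 17.0 RPM (206 and 262 reads) and miR-29a-5p 19.3 and 13.3 RPM (209 and 205 reads), both from chromosome 7. Their library values overlapped, and their order was not resolved. From chromosome 1, miR-29c-5p had 1.85 and 2.53 RPM (20 and 39 reads) and miR-29b-2-5p had 1.202 and 0.583 RPM (13 and 9 reads). MiR-29b-2-5p was the lowest of the 7, at rank 661 with 0.893 ± 0.437 RPM. In the order miR-29a-3p, miR-29b-3p, miR-29c-3p, miR-29b-1-5p, miR-29a-5p, miR-29c-5p and miR-29b-2-5p, every pair of neighbours but miR-29b-1-5p and miR-29a-5p had library values that did not overlap. With 2 libraries these are descriptions. An exact permutation test of 2 unpaired values against 2 cannot go below p = 0.333. The values of 2 names come from the same 2 libraries, so they are paired and that limit does not take the pairing into account.

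Of the 7 miR-29 names, 5 reached 10 RPM in both libraries, where 22.4% of all names in the table did. The exceptions were the chromosome 1 passengers miR-29c-5p and miR-29b-2-5p. Together the 7 names summed to 1700 and 2014 RPM, or 0.238% ± 0.0269 (SD, n = 2) of the library when each mature name was counted once.

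**Figure D2:**
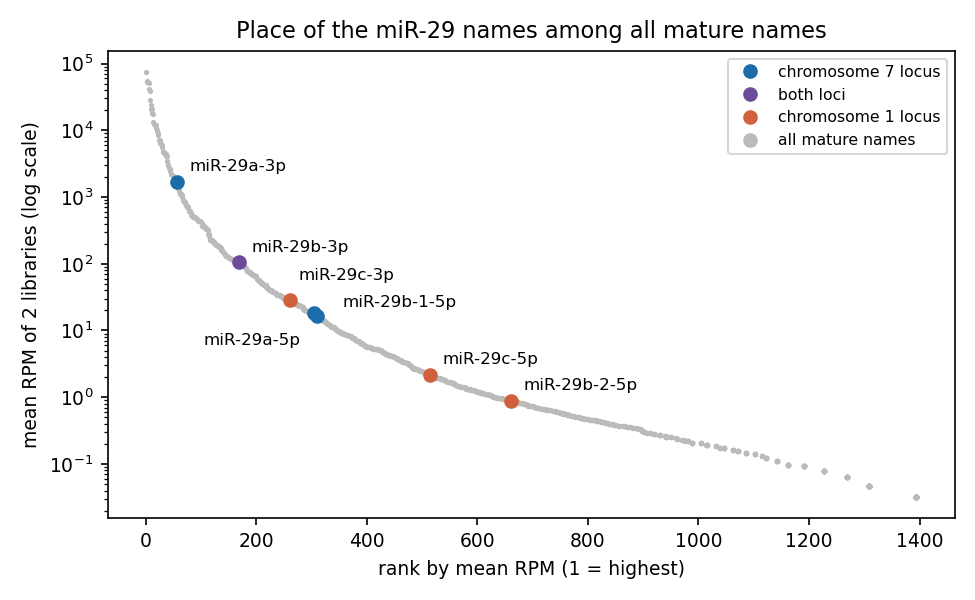
Mean RPM over both libraries (log axis) against rank for all 1497 mature names in grey, with the miR-29 names coloured by locus. The 7 names spread from rank 56 (miR-29a-3p, 1686 RPM) to rank 661 (miR-29b-2-5p, 0.893 RPM).

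The first comparison set the chromosome 7 locus against the chromosome 1 locus. Names that only chromosome 7 encodes summed to 1559 and 1882.5 RPM, against 31.2 and 31.4 RPM for names that only chromosome 1 encodes. The chromosome 7 locus was thus higher in both libraries, 49.9-fold in replicate 1 (95% exact interval 44.8 to 55.7) and 60.0-fold in replicate 2 (54.9 to 65.8), with a mean log2 ratio of 5.73 ± 0.19 (SD, n = 2) after adding 1 RPM. The intervals cover counting error only. Names of the chromosome 7 locus alone made up 92.6% ± 1.27 of the family's RPM, names of the chromosome 1 locus alone 1.70% ± 0.198, and miR-29b-3p 5.74% ± 1.07. Because miR-29b-3p could not be divided between the loci, the ratio was also taken with its higher row given whole to either. It was 53.4-fold and 63.2-fold with all miR-29b-3p on chromosome 7, and 11.0-fold and 14.3-fold with all of it on chromosome 1. With both rows summed and given to chromosome 1, the ratio was 6.21-fold (5.96 to 6.46) and 8.16-fold (7.88 to 8.45).

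The size of the difference depended on the arm. The guides miR-29a-3p and miR-29c-3p were 53.9-fold (48.1 to 60.6) and 65.5-fold (59.6 to 72.2) apart. The passengers of the same hairpins, miR-29a-5p and miR-29c-5p, were 10.45-fold (6.60 to 17.5) and 5.26-fold (3.72 to 7.61) apart, also with chromosome 7 higher. For the mir-29b hairpins, which give the same guide, miR-29b-1-5p was above miR-29b-2-5p by 15.8-fold (9.06 to 30.3) and 29.1-fold (15.1 to 64.4). MiR-29b-2-5p thus held 5.94% (exact interval 3.20 to 9.94) and 3.32% (1.53 to 6.21) of the reads of the mir-29b 5p strands. With the 5p strands of each locus summed, chromosome 7 had 38.4 and 30.3 RPM against 3.05 and 3.11 RPM for chromosome 1, 12.6-fold (8.81 to 18.5) and 9.73-fold (7.22 to 13.4). In each library the interval for miR-29a-3p over miR-29c-3p lay above that for the summed 5p strands. That order holds for these guides alone and depends on where miR-29b-3p is placed. With its higher row added to miR-29c-3p, the 3p strands were 11.0-fold (10.4 to 11.6) and 14.4-fold (13.8 to 15.1) apart, and with both rows added 6.13-fold (5.88 to 6.38) and 8.13-fold (7.85 to 8.43).

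**Figure D3:**
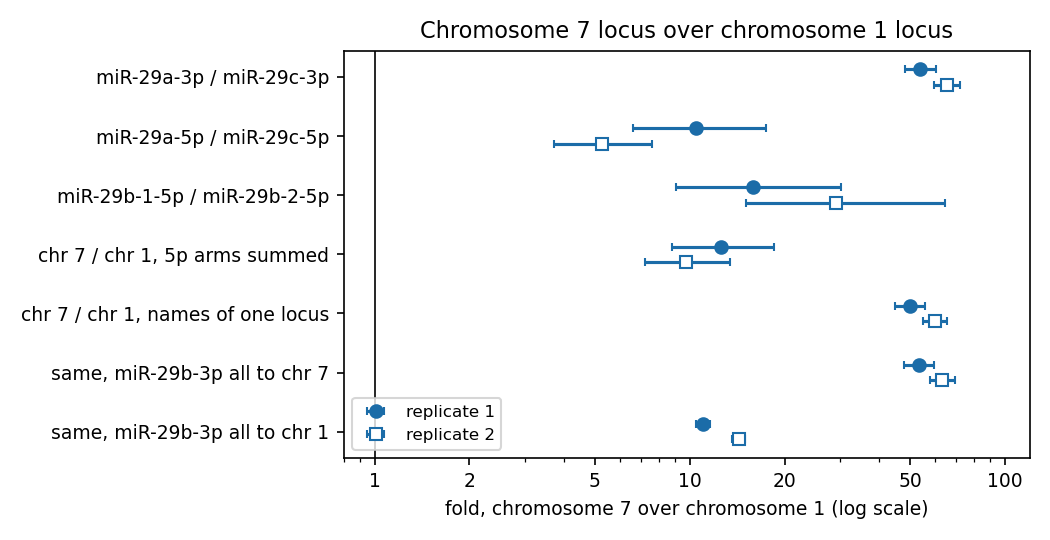
Fold of chromosome 7 over chromosome 1 names in recovered reads (log axis) for replicate 1 (filled circles) and replicate 2 (open squares), with 95% exact intervals; the vertical line is equality. All ratios lie above 1, from 5.26-fold for the mir-29a over mir-29c passengers in replicate 2 to 65.5-fold for their guides.

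For the chromosome 7 hairpins, the passengers were closer in level than the guides. MiR-29b-1-5p was 0.986-fold (0.809 to 1.201) and 1.28-fold (1.06 to 1.54) the level of miR-29a-5p, with an interval that included 1 in replicate 1 only. The guide miR-29a-3p was 13.8-fold (13.0 to 14.6) and 18.5-fold (17.6 to 19.5) above miR-29b-3p, or 6.91-fold and 9.29-fold above both of its rows summed. MiR-29b-3p includes any made from chromosome 1. Within the chromosome 1 locus, miR-29c-5p was 1.54-fold (0.728 to 3.37) and 4.33-fold (2.06 to 10.2) the level of miR-29b-2-5p, a ratio whose interval included 1 in replicate 1. The higher row of miR-29b-3p, of either locus, was 3.91-fold and 3.55-fold above miR-29c-3p. Adapter ligation is known to favour some sequences, and its part in these ratios between miRNAs was not tested.

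The second comparison was between the arms of each hairpin. In the rows listed under each of the 4 hairpins, the 3p strand was over 2-fold above the 5p strand in both libraries. This held for 34.3% of the 137 hairpins whose arms were both listed and together averaged at least 100 RPM. The log2 ratios here were taken after adding 1 RPM, and the folds from reads without it, so the 2 are not the same measure. The hairpin mir-29a had a log2 ratio of 3p over 5p of 6.62 ± 0.56, at number 14 of the 137 toward the 3p arm. Its 3p strand was 78.7-fold and 139-fold above its 5p strand. The hairpin mir-29b-1 had a log2 ratio of 2.47 ± 0.01, number 38, with folds of 5.75 and 5.84. For mir-29b-2 the log2 ratio was 5.83 ± 0.24, number 20, with folds of 91.8 and 172. With 0.1 RPM added instead, the log2 ratios were 6.70 for mir-29a and 6.80 for mir-29b-2, so the order of these hairpins depends on the value added. Each mir-29b ratio uses the miR-29b-3p row of its own hairpin. How many of those reads came from that hairpin was not resolved. Neither ratio is thus specific to its locus or gives the arm preference of that hairpin alone. The hairpin mir-29c, with a log2 ratio of 3.20 ± 0.22 and folds of 15.25 and 11.2, had a summed level of 30.4 RPM. It stood below the 100 RPM minimum and is not among the 137. The median over the 137 hairpins was -2.68, toward the 5p arm.

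**Figure D4:**
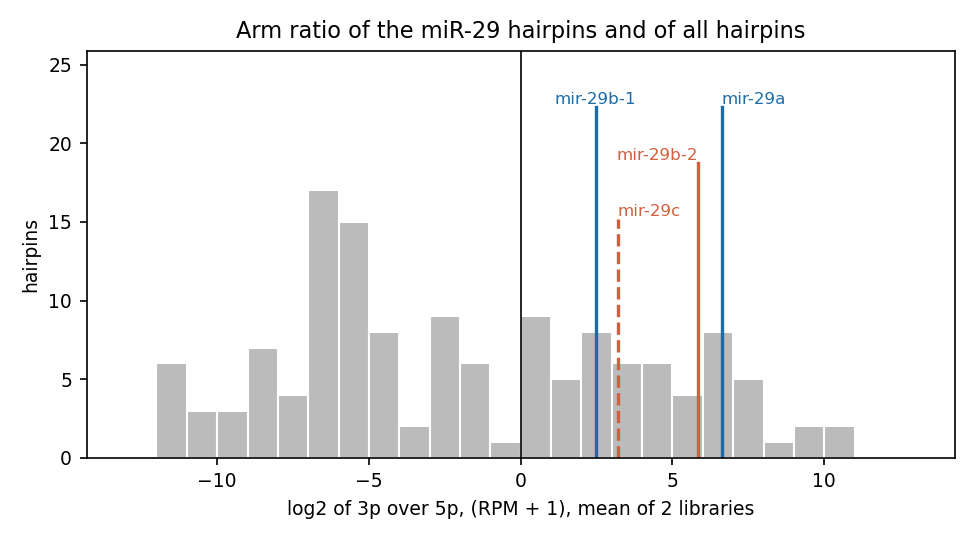
Histogram of the log2 ratio of 3p over 5p (RPM + 1, mean of both libraries) for 137 hairpins, with lines at the 4 miR-29 hairpins; the dashed line, mir-29c, is below the level needed for the histogram. All 4 lie right of 0, with mir-29a at 6.62, mir-29b-2 at 5.83, mir-29c at 3.20 and mir-29b-1 at 2.47.

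Other hairpins with separate names for one arm, and whose shared arm the table lists under more than 1 hairpin, were set beside the mir-29b pair. Sets whose shared arm is listed under a single hairpin, such as miR-129-5p, miR-509-3p and miR-550a-3p, were not among them. Sets with an entry for only 1 of the separately named arms were also left out, and these could be further apart. The order, share and median below thus hold only for sets with more than 1 such arm listed. The mir-29b pair was 20.2-fold apart by its means and stood at number 4 of these 14 sets by size. Like it, 76.9% of the 13 others had locus-specific arms over 2-fold apart in the same direction in both libraries. Above it were miR-7-1-3p over miR-7-2-3p (60.1-fold), miR-16-2-3p over miR-16-1-3p (48.6-fold) and miR-24-2-5p over miR-24-1-5p (42.4-fold), and the next below was miR-181b-3p over miR-181b-2-3p (16.7-fold). The median of the other 13 was 9.20-fold. In 10 of the 14 both arms had a mean of 1 RPM or more, while miR-29b-2-5p did not, so its fold rests on few reads. The lower arm of the miR-7 set was also under 1 RPM, and that set was named after its values were seen.

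**Figure D5:**
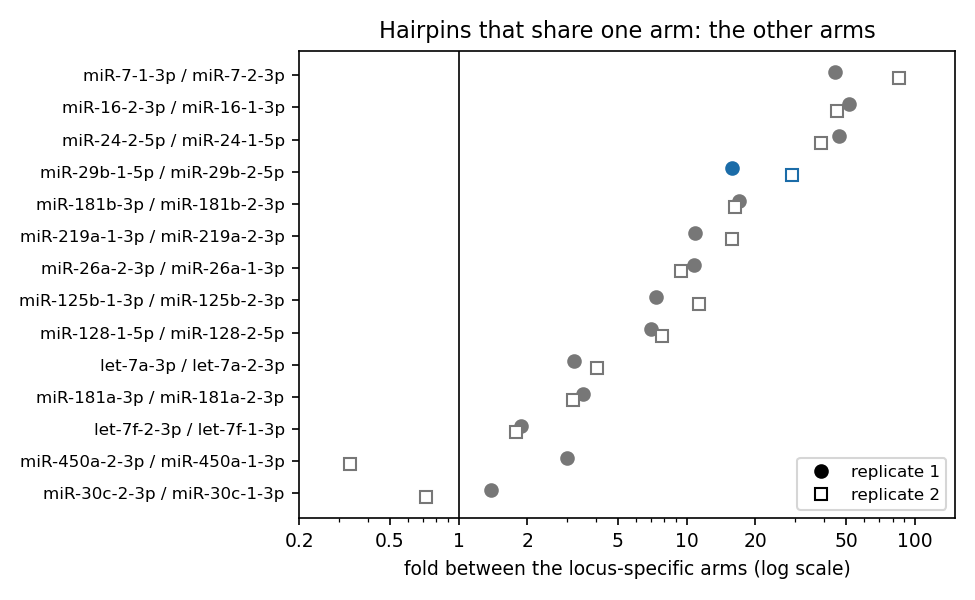
Fold between the locus-specific arms (log axis) of hairpins whose shared arm is listed under more than 1 hairpin, in replicate 1 (filled circles) and replicate 2 (open squares); the mir-29b pair is in blue, and the vertical line is equality. Only sets with more than 1 locus-specific arm listed are drawn. The mir-29b pair lies at 15.8-fold and 29.1-fold, number 4 of 14 by the fold of the means.

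The libraries were compared as the only measure of error. No miR-29 name was over 2-fold apart between them after adding 1 RPM, where 0.868% of all names were. With 0.1 RPM added instead, none of the 7 was either, while 21.2% of all names were, so the share over all names rests on the value added. Without the added 1 RPM, miR-29b-2-5p differed by 2.06-fold, from 13 and 9 reads. MiR-29a-5p differed most with it, 1.42-fold higher in replicate 1, and miR-29c-3p least, at 1.002-fold. The 5 miR-29 names that averaged at least 10 RPM had a median difference of 1.11-fold, against 1.19-fold for all 346 such names, of which 1.73% and none of the miR-29 names were over 2-fold apart. The 4 names miR-29b-3p, miR-29b-1-5p, miR-29a-5p and miR-29b-2-5p were higher in replicate 1, and the 3 others in replicate 2. For miR-29c-3p that difference was below counting error and turned to 1.01-fold higher in replicate 1 when reads were set against all other reads of mature names. In recovered reads, Fisher's exact test (two-sided), adjusted with the Benjamini-Hochberg method over 869 names, gave an adjusted p under 0.05 for 3 of the 7, miR-29a-3p (1.1e-82, 1.21-fold), miR-29a-5p (0.00051, 1.47-fold) and miR-29b-3p (0.021, 1.11-fold), where 35.7% of all tested names passed. None of the 7 passed with a fold above 2, against 4.72% of tested names. This test compares these 2 libraries and not conditions. With shares as small as 0.868%, 1.73% and 4.72%, a count of none among so few miR-29 names says little of the family. The 2 arms of mir-29a differed in opposite directions between the libraries. After adding 1 RPM, its log2 arm ratio had the largest SD of the 4 hairpins, 0.56. In reads without it, the fold of 3p over 5p had an SD of 56.6 in mir-29b-2, above 42.9 in mir-29a.

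A pair of miRNA lists with known ties to the family set its level in context. Over all names the median was 0.588 RPM, and 22.4% reached 10 RPM in each library. Of 21 miRNAs known to be repressed by MYC in lymphoid cells alongside miR-29, 20 did, with a median of 2113 RPM. The highest of them was let-7a-5p (41893 RPM), then miR-22-3p (38295 RPM), a miRNA known as a tumour suppressor in several tissues, and miR-30a-5p (20812 RPM), so miR-29a-3p lay below the median of the list and miR-29b-3p and miR-29c-3p far below it. Of 8 miRNAs reported to target DNA methyltransferases, all reached 10 RPM, with a median of 1210 RPM. The highest were miR-30a-5p, miR-148a-3p at 6153 ± 1425 RPM and miR-101-3p at 2496 ± 397 RPM, and miR-29a-3p lay between the median and these. No miRNA of either list was over 2-fold apart between the libraries, where 0.868% of all names were after adding 1 RPM. With so small a share, this says little of the lists.

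Sites for the guides were then counted in annotated 3′ untranslated regions (UTRs), since the series' subject is regulation of a BRAF transcript, BRAF-X1, by miRNAs. BRAF encodes a kinase of the MAPK pathway that is often mutated in melanoma. The motif TGGTGCT, the reverse complement of the seed, read on the transcript strand, was absent from the 3′ UTRs of all 5 protein-coding BRAF transcripts in GENCODE 29 with a complete 3′ end, which ranged from 111 to 7167 bases. The shorter GGTGCT, for bases 2 to 7, was also absent. Of 2042 genes with a 3′ UTR of 3500 bases or more, 37.7% held TGGTGCT and 68.9% held GGTGCT, and of all 19128 genes 12.0% and 25.7% did. This says only that these letters are not in these windows. Sites in coding sequence and other kinds of pairing were not searched.

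As a check of the motif, 22 of 22 listed known targets held TGGTGCT in the 3′ UTR of the transcript with the longest coding sequence, from 1 match in genes such as MCL1, COL1A1 and DNMT3B to 10 in TET3. The list was drawn from published targets, many of them found through such sites, so this count is not independent evidence. A match from each of 3 of them is shown in GRCh38, taken from GENCODE 29 transcripts with the match in capitals, to show what the guides can pair with.
MCL1, chr1:150576036-150576061, minus strand: aggctagtctaaccaTGGTGCTatta
DNMT3B, chr20:32809090-32809115, plus strand: ttttactcttcttacTGGTGCTattt
COL1A1, chr17:50184569-50184594, minus strand: tggggagggaatcacTGGTGCTatag
Each match shown is followed by A, opposite base 1 of the guide, a setting known to favour pairing. Several of the 22 targets, such as DNMT3A and TET1, held no match followed by A. MCL1 blocks apoptosis, DNMT3B adds methyl groups to DNA, and COL1A1 is a chain of type I collagen. Messenger RNA levels of these genes were not analysed here.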

How the data were processed

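Per the labels, A375 cells were treated with DMSO for 48 h, starting 24 h after seeding 1000000 cells in 10 cm dishes, and RNA was extracted with the miRNeasy kit. The submitters' processing notes name CASAVA 1.8 and cutadapt 1.2.1. Not given in the sources used here are the aligner, miRNA release, genome build, mismatches allowed and how reads that match several places were counted. The deposited values are RPM, 1 for each hairpin and mature name and library, with decimal commas, and each of the authors' columns sums to 1000000. Divided by the smallest value of its column, each value gave a whole number within 0.01 reads, so reads were recovered. No other column of values was present. Both samples form 1 group, and the labels say nothing of separate cultures beyond calling the replicates independent, so their spread may be technical.

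For names with several hairpins the copy with the higher mean was used. Totals were the sums over mature names, 77.6% and 78.3% of the deposited sums. Log ratios used a pseudocount of 1 RPM, which understates folds of low names. The share of all names over 2-fold apart between libraries depends on it. Folds between names come from reads without it, with exact binomial intervals. Intervals cover counting error only, since PCR reads are not independent molecules. The comparison of arms took hairpins whose arms together averaged at least 100 RPM. Fisher's exact test took names with at least 10 reads in sum, and 0.5 reads were added for its folds. The named miRNAs are the family, the neighbours of each guide in mean level, the hairpins sharing an arm and the top 3 of each list; the single-base pair of miR-100-5p and the sets left out of the shared-arm comparison were named after its values were seen. The members and lists were chosen with earlier results of these data known. UTRs were taken from GENCODE 29 transcripts. Python 3.11.15, scipy 1.17.1 and pandas 2.3.3 were used.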

Additional observations from a re-analysis of the deposited data

How the results depend on the processing

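Ratios between loci and arms were taken within each library and so are paired by library. No pairing across conditions was possible because both libraries belong to 1 group. No ratio between loci or arms changed sign under any alternative listed here. A pseudocount of 10 RPM, which exceeds several members, lowered the log2 ratios to 5.46 for miR-29a-3p over miR-29c-3p, 1.36 for miR-29b-1-5p over miR-29b-2-5p, 5.38 for chromosome 7 over chromosome 1, and for 3p over 5p to 6.01 in mir-29a, 2.03 in mir-29b-1, 3.40 in mir-29b-2 and 1.65 in mir-29c. A pseudocount of 0.1 RPM gave 4.26 for miR-29b-1-5p over miR-29b-2-5p, and 2.53, 6.80 and 3.65 for the arms of mir-29b-1, mir-29b-2 and mir-29c. The log2 ratio of the loci was 3.64 with all miR-29b-3p given to chromosome 1, and, in alternatives chosen after the data were seen, 2.83 with both rows of miR-29b-3p summed and given to chromosome 1 and 3.10 over 5p strands only. Summed copies over the deposited total gave a family share of 0.196%. The totals used elsewhere were 77.6% and 78.3% of the deposited ones, and the larger total lowers the share. At a minimum of 100 RPM in both libraries, 2 of the 7 names passed, miR-29a-3p and miR-29b-3p. MiR-29b-3p passed by its higher row, at 100.3 RPM in replicate 2, where its mir-29b-1 row, at 99.2 RPM, fell short. The share of all names that pass this minimum was not counted, so the 2 names have no background to be set against. Scaling the libraries by the median ratio (replicate 2 over replicate 1, 0.931) left no miR-29 name over 2-fold apart. With 2 libraries, leaving out a replicate returns the value of the other, so it says nothing of stability. Depth limits miR-29b-2-5p and miR-29c-5p most, with 9 to 39 reads a library, and the motif counts in BRAF were 0 under each motif.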

Other observations

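MiR-29b-3p ends in the bases AGUGUU, an element known to direct it to the nucleus in other cell lines. Of the 1317 listed names with a sequence, no other ended in these bases, and 7, or 0.532%, held them anywhere. The libraries are of total RNA, so where miR-29b-3p lay in the cell was not measured.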
